A study of Mus musculus with 12 samples.

Results

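Fasting-type PPARA target genes are genes that the nuclear receptor PPARA raises when an animal runs on fat. The 8 genes described here are Pdk4, Ucp2, Acot1, Acot2, Cyp4a10, Cyp4a14, Angptl4 and Slc27a1. They were chosen by name and looked up by gene symbol, and 8 of 8 were found among the 11614 genes in the files, so all are described in all 12 libraries.

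The libraries are RNA sequencing profiles of kidney cortex from C57BL/6J mice, 3 in each of 4 groups, from a study of kidney disease in a model of non-alcoholic steatohepatitis (NASH), a fatty and inflamed liver state. Control mice had a normal diet with corn oil and NASH mice a Western diet (WD) with the liver toxin carbon tetrachloride (CCl4), for 12 or 24 weeks. Diet, toxin and liver disease come together, so their effects on the kidney cannot be told apart. Per the labels, the groups held 6 control and 6 NASH mice at 12 weeks, 8 control mice at 24 weeks and 10 NASH mice at 24 weeks, with equal numbers of each sex. The labels name no transgene and give no sex per library, no hour of dissection and no feeding state. Nothing says whether a library is 1 animal or a pool, so p-values measure the spread between libraries, which may be technical.

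PPARA is a receptor for fatty acids that binds DNA together with RXR. In fasting, adipose tissue releases fatty acids, and in liver and in the proximal tubule of the kidney PPARA raises genes that bring fatty acids in, release them from coenzyme A, oxidise them and hold back the use of glucose. Several of its targets also answer to glucocorticoids, FOXO factors or the related receptor PPARD, so the level of a target is not a measure of PPARA alone.

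Replicate 1 stood apart from replicates 2 and 3 in every group. Xist, an RNA of the inactive X chromosome, was at log2 10.6 to 11.5 in the 4 libraries numbered 1 and at 2.97 to 4.86 in the other 8. The Y-linked Ddx3y was at 2.48 to 4.25 and 8.95 to 9.62, and Kap, an androgen-driven protein of the proximal tubule, at 12.39 to 16.87 and 18.21 to 19.23. By Xist and Ddx3y the libraries numbered 1 read as female and the other 8 as male. Results from replicates 2 and 3 alone are thus from libraries that read as male. Sex cannot be told apart from anything else that goes with the replicate number. Depth, estimated from the steps of the values, ran from 7170000 to 14100000 reads. The summed level of 10 markers of the proximal tubule, the main cell type of the cortex, was log2 19.67 to 19.88 in the libraries numbered 1 and 19.99 to 20.42 in the other 8. Without Kap, which is on that list, the other 9 summed to 19.52 to 19.69 and 19.15 to 19.85, which overlap. Changes of the 8 genes are given below with and without replicate 1.

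All 8 genes had higher mean values at 24 than at 12 weeks, in either arm. Across all 12 libraries none passed the test in a single arm. Averaged over both arms, Pdk4 and Slc27a1 passed, and only with the replicate number added to the fit as a block. In replicates 2 and 3 the rise was large, up to 22.1-fold in controls and 36.5-fold in NASH mice, both for Cyp4a14. In replicate 1 it was small or absent for most of the genes. NASH and control libraries of the same age did not differ detectably in any of the 8.

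**Figure D1:**
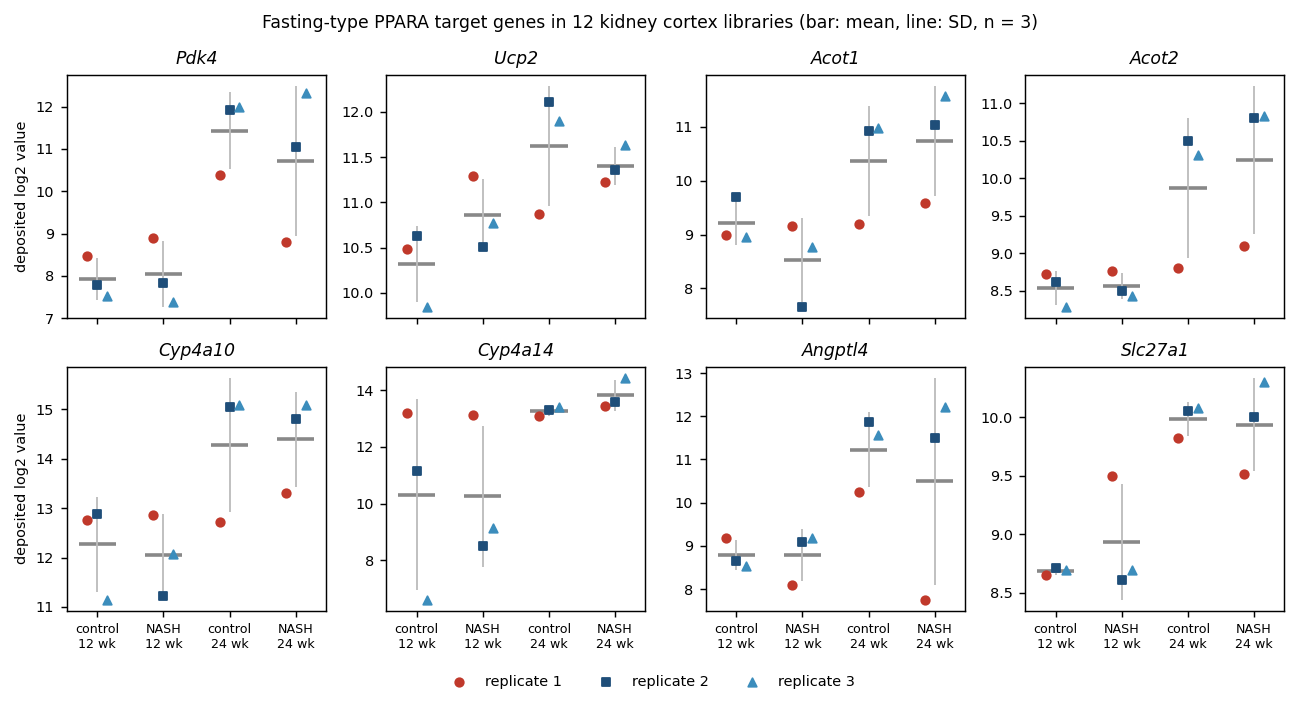
Deposited log2 value (vertical axis) of each of the 8 genes in the 12 libraries, by group (horizontal axis); points are libraries, marked by replicate number, and bars and lines give the mean and SD (n = 3). Replicate 1 is the lowest of the 3 libraries for 8 of 8 genes in both 24-week groups.

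Pdk4 encodes a pyruvate dehydrogenase kinase, which switches off the entry of pyruvate into the tricarboxylic acid cycle and so spares glucose in fasting. In build mm10 it lies on the minus strand of chromosome 6, from 5483351 to 5496278. At 12 weeks its log2 values were 8.47, 7.79 and 7.52 in control replicates 1 to 3 and 8.90, 7.84 and 7.38 in NASH replicates 1 to 3. At 24 weeks they were 10.38, 11.92 and 12.00 in control and 8.81, 11.05 and 12.31 in NASH. The control groups did not overlap, whereas NASH replicate 1 was no higher at 24 weeks than at 12. The change over time was 3.51 in control (SE 0.77, 95% interval 1.82 to 5.20, limma adjusted p = 0.454) and 2.68 in NASH (SE 0.77, interval 0.99 to 4.37, adjusted p = 0.814). Within replicates 2 and 3 Pdk4 rose 19.8-fold in control (log2 4.31, SE 0.32, limma adjusted p = 9.31e-05) and 16.8-fold in NASH (4.07, SE 0.32, adjusted p = 0.00021). The NASH value was 3.44 without replicate 3 at 24 weeks and 4.70 without replicate 2.

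Ucp2, an uncoupling protein of the inner mitochondrial membrane, lies on the plus strand of chromosome 7, from 100493358 to 100499629. Its 12-week values were 10.48, 10.63 and 9.84 in control and 11.29, 10.51 and 10.77 in NASH. The 24-week values were 10.87, 12.11 and 11.90 in control and 11.22, 11.36 and 11.63 in NASH. Control libraries at 24 weeks all lay above those at 12, and in NASH the groups overlapped through replicate 1. Ucp2 had the smallest change of the 8 in NASH, 0.54 (SE 0.33, interval -0.17 to 1.26), against 1.31 in control (SE 0.33, interval 0.59 to 2.02). Without replicate 1 it rose 3.40-fold in control (limma adjusted p = 0.00223), while its NASH change of 0.86 missed the threshold (adjusted p = 0.0586).

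Slc27a1, a fatty acid transport protein that also joins fatty acids to coenzyme A, lies on the plus strand of chromosome 8, from 71568927 to 71586708. Control values were 8.65, 8.71 and 8.69 at 12 weeks and 9.82, 10.05 and 10.08 at 24 weeks. NASH values were 9.50, 8.61 and 8.69 at 12 weeks and 9.51, 10.00 and 10.30 at 24 weeks. The 24-week libraries lay above the 12-week ones in both arms, in NASH only just, because replicate 1 was already high at 12 weeks. Slc27a1 had the narrowest interval of the 8: its change was 1.30 in control (SE 0.24, interval 0.77 to 1.84) and 1.0 in NASH (SE 0.24, interval 0.47 to 1.54). Its rise within replicates 2 and 3 was 2.59-fold in control (limma adjusted p = 0.000469) and 2.82-fold in NASH (adjusted p = 0.000341).

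Angptl4, a secreted inhibitor of lipoprotein lipase that turns fat away from tissues in fasting, lies on the minus strand of chromosome 17, from 33774900 to 33781575. Control values were 9.18, 8.64 and 8.53 at 12 weeks and 10.25, 11.87 and 11.57 at 24 weeks. NASH values were 8.10, 9.08 and 9.18 at 12 weeks and 7.76, 11.50 and 12.22 at 24 weeks. NASH replicate 1 at 24 weeks was the lowest of all 12 libraries, next to the highest, NASH replicate 3, in its own group. The change was 2.45 in control (SE 0.92, interval 0.42 to 4.48) and 1.71 in NASH (SE 0.92, interval -0.32 to 3.74). Replicates 2 and 3 alone gave a rise of Angptl4 of 8.79-fold in control (limma adjusted p = 9.31e-05) and 6.64-fold in NASH (adjusted p = 0.00021).

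Acot1 and Acot2 encode acyl-CoA thioesterases of the cytosol and the mitochondrion, which free fatty acids from coenzyme A. They are neighbours on the plus strand of chromosome 12, Acot2 from 83987861 to 83993875 and Acot1 from 84009502 to 84017669, 15627 bases apart. Acot1 was at 9.0, 9.69 and 8.95 in control and 9.16, 7.65 and 8.76 in NASH at 12 weeks. At 24 weeks it was at 9.19, 10.92 and 10.98 in control and 9.59, 11.04 and 11.58 in NASH. In NASH all 24-week libraries were higher, and in control replicate 1 stayed within the 12-week range. Acot2 was at 8.72, 8.61 and 8.28 in control and 8.76, 8.5 and 8.43 in NASH at 12 weeks. At 24 weeks Acot2 was at 8.80, 10.50 and 10.31 in control and 9.10, 10.80 and 10.83 in NASH. Replicate 1 of Acot2 lay just above the 12-week libraries and far below the other 2 of its group in both arms.

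The change of Acot1 was 1.15 in control (SE 0.60, interval -0.16 to 2.47) and 2.21 in NASH (SE 0.60, interval 0.90 to 3.52), and that of Acot2 1.33 (interval 0.25 to 2.42) and 1.68 (interval 0.60 to 2.77). In replicates 2 and 3 Acot1 rose 3.10-fold in control (limma adjusted p = 0.0197) and 8.59-fold in NASH (adjusted p = 0.00101). Acot2 rose 3.89-fold in control (limma adjusted p = 9.31e-05) and 5.11-fold in NASH (adjusted p = 9.9e-05). The 2 genes are close copies in part: 23.7% of the 50-base windows of Acot1 occur in Acot2 and 24.5% of those of Acot2 in Acot1. How the authors' counting split such reads is not given in the sources used here, so values of single genes of this pair are uncertain.

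Cyp4a10 and Cyp4a14 are cytochrome P450 enzymes that hydroxylate fatty acids at their far end, and both are textbook targets of PPARA. They lie on chromosome 4, Cyp4a14 on the minus strand from 115486200 to 115496141 and Cyp4a10 on the plus strand from 115518287 to 115533649, 22146 bases apart. Cyp4a10 was at 12.76, 12.89 and 11.15 in control and 12.87, 11.23 and 12.08 in NASH at 12 weeks. At 24 weeks it was at 12.71, 15.04 and 15.09 in control and 13.30, 14.81 and 15.09 in NASH. Replicates 2 and 3 at 24 weeks were the 4 highest libraries, and control replicate 1 was no higher at 24 weeks than at 12. Its change was 2.01 in control (SE 0.73, interval 0.40 to 3.63) and 2.34 in NASH (interval 0.72 to 3.96). From replicates 2 and 3 alone, Cyp4a10 rose 8.24-fold in control (limma adjusted p = 0.00473) and 9.82-fold in NASH (adjusted p = 0.00321). That control change, 3.04 on the log2 scale, was 2.17 without replicate 3 at 12 weeks and 3.92 without replicate 2. Of its 50-base windows, 30.5% also occur in a listed relative, 25.0% in Cyp4a32, so its level too is uncertain.

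Cyp4a14 behaved differently at 12 weeks. Its values there were 13.20, 11.14 and 6.62 in control and 13.11, 8.5 and 9.14 in NASH, and at 24 weeks 13.07, 13.29 and 13.39 in control and 13.43, 13.59 and 14.43 in NASH. Replicate 1 sat at 13.07 to 13.43 in every group, whereas replicates 2 and 3 were low at 12 weeks and at the level of replicate 1 or above it at 24 weeks. The lowest value, control replicate 3, rested on an estimated 93 reads. Its change was 2.93 in control (SE 1.47, interval -0.31 to 6.17) and 3.57 in NASH (SE 1.47, interval 0.32 to 6.81), the widest intervals of the 8. Within replicates 2 and 3 Cyp4a14 rose 22.1-fold in control (log2 4.46, SE 1.03, limma adjusted p = 0.0318) and 36.5-fold in NASH (5.19, SE 1.03, adjusted p = 0.019). In that fit the control change was 2.20 without replicate 3 at 12 weeks and 6.72 without replicate 2. None of its 50-base windows (0.0%) occur in a listed relative.

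Levels can be compared between genes per kilobase of the transcript length in the files, as means of the scaled reads in a group. Cyp4a10 had the highest level of the 8 in every group, from 2270 in NASH at 12 weeks to 12000 in control at 24 weeks, and Cyp4a14 came next, from 1300 to 6070. Ucp2 lay between 831 and 2130. Pdk4 had the lowest level at 12 weeks, 73.1 in control and 84.5 in NASH, and passed Slc27a1 and Acot2 at 24 weeks, at 898 and 737. Slc27a1 was then the lowest, at 364 in control and 359 in NASH. Neighbours in this order were often closer than the spread of their replicates, as Acot1 and Pdk4 at 24 weeks.

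Because the 8 genes moved together, the 250 bases before their RefSeq transcript starts (build GRCm38.p6, on which mm10 rests) were read for letters that nuclear receptors and other fasting factors recognise. The table held 7 such windows for 5 of the genes, Pdk4, Ucp2, Acot1, Acot2 and Slc27a1, the last with 3. Those of the 2 genes whose change differed most clearly between replicate numbers, Pdk4 and Acot2, and of Acot1, the neighbour of Acot2, are shown 5′ to 3′ on the gene's strand. Capitals mark AGGNCA, the receptor half-site with 1 open letter, on either strand. The windows are chr6:5496279-5496528 on the minus strand for Pdk4, chr12:83987611-83987860 for Acot2 and chr12:84009252-84009501 for Acot1, both on the plus strand.
Pdk4: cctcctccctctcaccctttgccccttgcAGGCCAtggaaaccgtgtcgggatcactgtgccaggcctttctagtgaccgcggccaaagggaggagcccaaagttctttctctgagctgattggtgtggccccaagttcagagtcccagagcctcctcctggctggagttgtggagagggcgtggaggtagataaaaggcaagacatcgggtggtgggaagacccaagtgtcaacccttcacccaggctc
Acot2: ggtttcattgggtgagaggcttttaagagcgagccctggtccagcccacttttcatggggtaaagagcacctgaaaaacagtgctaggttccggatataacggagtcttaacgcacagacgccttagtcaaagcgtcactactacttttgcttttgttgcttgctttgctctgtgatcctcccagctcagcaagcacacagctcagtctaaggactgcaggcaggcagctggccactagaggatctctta
Acot1: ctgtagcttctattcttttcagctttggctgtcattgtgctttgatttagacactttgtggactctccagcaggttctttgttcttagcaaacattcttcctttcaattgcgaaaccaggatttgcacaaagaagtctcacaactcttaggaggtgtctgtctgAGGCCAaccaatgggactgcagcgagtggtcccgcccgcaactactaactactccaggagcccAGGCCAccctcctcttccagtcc

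AGGNCA occurred in 5 of the 7 windows, against 51.31% of 32851 promoter windows of the same length, with 2 matches in Acot1, 1 in Pdk4 and 0 in Acot2. The exact half-site AGGTCA occurred in 0 of 7 (14.02% of all windows), and so did 2 copies of AGGTCA 1 base apart, the form in which PPARA and RXR bind (0.03%), and 2 copies of AGGNCA 1 base apart (0.34%). Also in 0 of 7 were GTAAACA, a FOXO letter run (3.17%), CAAAGGTCA (0.43%) and AGAACA with TGTTCT 3 bases on, the glucocorticoid palindrome (0.01%). TTANNTAA (5.43%), CACGTG (6.02%) and GGGTCA (11.65%) occurred in 1 window each, all of Slc27a1. Both strands were searched, and matches of AGGNCA include those of AGGTCA. A missing match says only that these letters are not in this window.

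The first comparison of the design is NASH against control at the same age. At 12 weeks 0 of the 8 genes passed the test, where limma called 0.0517% of all genes, and 0 had an unadjusted p under 0.05, against 14.5% of all genes. Changes ran from -0.69 for Acot1 (SE 0.60, interval -2.0 to 0.62) to 0.54 for Ucp2 (SE 0.33, interval -0.18 to 1.26), and the groups overlapped for 8 of 8 genes, while they did not for 22.5% of all genes. At 24 weeks 0 of 8 passed (0.0% of all genes), and 0 had an unadjusted p under 0.05 (2.99% of all genes). Angptl4 was lowest, at -0.74 (SE 0.92, interval -2.77 to 1.29), with Pdk4 at -0.71 (SE 0.77, interval -2.41 to 0.98). Cyp4a14 was highest, at 0.57 (SE 1.47, interval -2.68 to 3.81), and the 1 gene of the 8 whose NASH libraries all lay above the control libraries, which held for 4.56% of all genes. The intervals include changes of several fold for Cyp4a14, Angptl4 and Pdk4, so a difference of that size is not excluded here. They are narrow for Slc27a1, from -0.28 to 0.79 at 12 weeks and from -0.58 to 0.48 at 24 weeks. The difference between the NASH effects at the 2 ages, and their average, also gave 0 of 8 calls, where 0.0% of all genes were called for both. There 0 of the 8 had an unadjusted p under 0.05, against 3.66% of all genes for the difference and 13.6% for the average. With the replicate number as a block 0 of 8 were called in each of these 4 comparisons, where 12.9% of all genes were called at 12 weeks, 0.00861% at 24 weeks, 0.00861% for the difference and 10.4% for the average. With replicates 2 and 3 alone 0 of 8 were called too, where 3.31%, 0.103%, 0.629% and 1.06% of all genes were called in the same order.

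**Figure D2:**
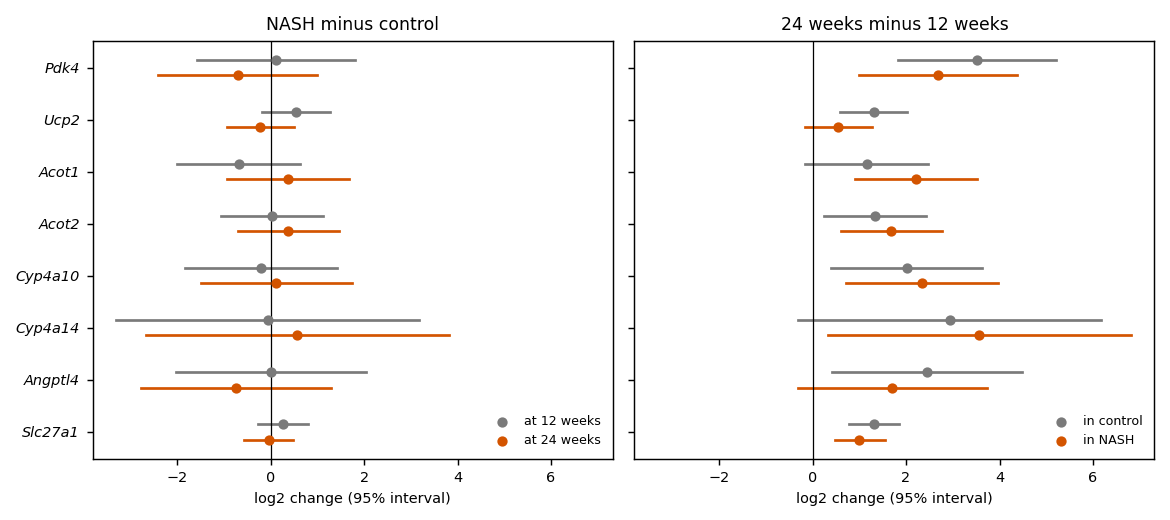
Log2 change (horizontal axis) of each of the 8 genes with its 95% interval across all 12 libraries: NASH minus control at each age on the left, 24 minus 12 weeks in each arm on the right. On the left every interval includes 0, and on the right all 16 changes are above 0.

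The second comparison is 24 against 12 weeks. Age, length of treatment and anything shared by the mice of 1 dissection time cannot be told apart in it. In control mice 8 of 8 changes were positive, with a median of 1.67 against -0.08 over all genes, and 0 were called (0.0% of all genes called), while 6 had an unadjusted p under 0.05 on the higher side (2.97% of all genes). In NASH mice 8 of 8 were positive, with a median of 1.96 against 0.02, and again 0 were called (0.0%), with 6 at an unadjusted p under 0.05 (2.63%). The groups did not overlap for 5 genes in control, Acot2, Angptl4, Pdk4, Slc27a1 and Ucp2 (4.72% of all genes), and for 5 in NASH, Acot1, Acot2, Cyp4a10, Cyp4a14 and Slc27a1 (4.06%). Averaged over both arms, a contrast added after the data were seen, 0 were called (0.0%) and 8 had an unadjusted p under 0.05 (4.16%). With the replicate block this average called 2 of 8, Pdk4 (3.09, SE 0.52, limma adjusted p = 0.049) and Slc27a1 (1.15, SE 0.17, adjusted p = 0.049), where 0.112% of all genes were called higher. The other 6 had adjusted p from 0.0544 to 0.0986. In single arms the block called 0 of 8 (0.0344% of all genes higher in control, 0.0258% in NASH).

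Replicate 1 differed less over time than the others. Same-numbered libraries in control differed over time by -0.13 to 1.92 in replicate 1, with 6 of 8 genes positive and a median of 0.29, by 1.24 to 4.13 in replicate 2 and by 1.40 to 6.77 in replicate 3. In NASH the differences were -0.34 to 0.43 in replicate 1, with 5 of 8 positive, 0.85 to 5.09 in replicate 2 and 0.86 to 5.29 in replicate 3. The largest differences in replicate 1 were those of Pdk4 (1.92), Slc27a1 (1.17) and Angptl4 (1.07) in control.

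**Figure D3:**
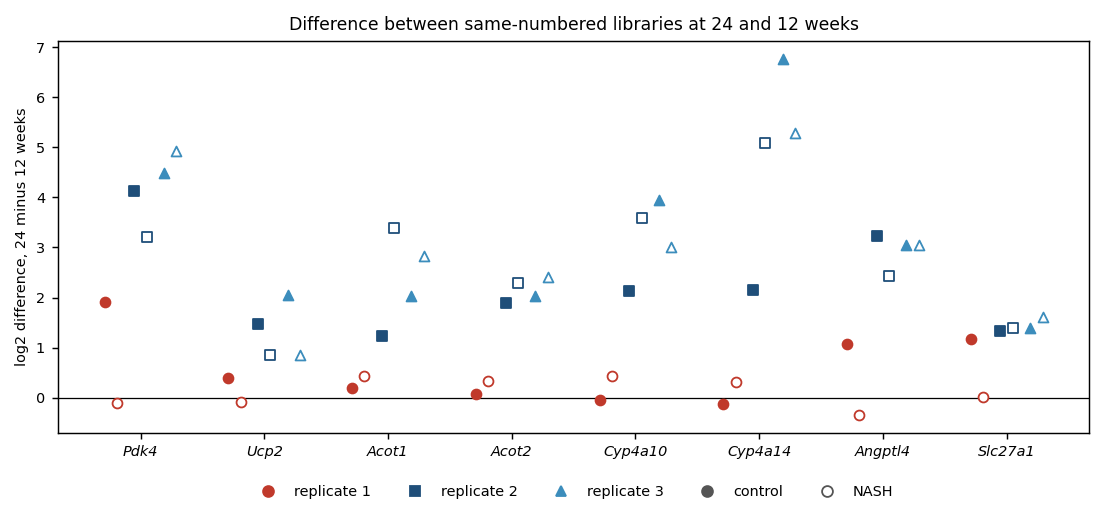
Log2 value at 24 weeks minus that at 12 weeks between same-numbered libraries (vertical axis) for each of the 8 genes (horizontal axis); filled marks are control, open marks NASH, and shape and colour give the replicate number. Replicates 2 and 3 lie between 0.85 and 6.77, and replicate 1 between -0.34 and 1.92.

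Without replicate 1 the fit called 8 of 8 genes higher at 24 weeks in control, where it called 2.33% of all genes higher, and 7 of 8 in NASH (2.51%), all but Ucp2. Averaged over both arms it called 8 of 8 (4.51%). Medians of the 8 were 2.50 in control and 2.92 in NASH, against -0.14 and 0.01 over all genes. This fit has 2 libraries a group, and the split was known from earlier results when it was planned, so its calls are no independent evidence. Leaving out any 1 of its 8 libraries left 6 to 8 calls in control, where 0.913% to 2.48% of all genes were called higher, and 6 to 8 in NASH (0.913% to 2.45%). The calls that ended were those of Acot1 in control (adjusted p up to 0.119), of Cyp4a14 in control without either 24-week library (up to 0.131) and of Cyp4a14 in NASH without any of the 4 NASH libraries (up to 0.112). A group left with 1 library was assumed to vary like the others.

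A test of the difference between replicate numbers, added after the data were seen, compared the change over time in replicate 1 with that in replicates 2 and 3, averaged over both arms. It was negative for 8 of 8 genes and called 2, against 0.198% of all genes. Acot2 changed by 0.21 in replicate 1 and by 2.16 in the others (difference -1.95, SE 0.17, limma adjusted p = 0.00114), and Pdk4 by 0.91 and 4.19 (difference -3.28, SE 0.47, adjusted p = 0.0176). For the other 6 genes the adjusted p lay between 0.0627 and 0.286. The count was 1 without control replicate 1 at 12 weeks or NASH replicate 1 at either age, and 4 without control replicate 2 at 12 weeks. The share of all genes called in those fits is not given here.

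Other PPARA targets, from a list of 55 genes of which 52 were measured, served as a background for the 8. Across all 12 libraries 48 of 52 changes were positive in control and 44 in NASH, and 0 were called. Within replicates 2 and 3 the fit called 35 higher and 2 lower in control and 27 higher and 1 lower in NASH. Over all genes it called 2.33% higher and 4.17% lower in control, and 2.51% and 2.14% in NASH.

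Named after their values were seen, other targets that rose in both arms within replicates 2 and 3 were the fatty acid binding protein Fabp1 (2.74 in control, 3.73 in NASH), the transcription factor Creb3l3 (2.44 and 3.74), the lipid droplet coats Plin5 (2.13 and 1.99) and Plin2 (1.70 and 1.31), the pantetheinase Vnn1 (1.99 and 1.90), and the oxidation enzymes Eci1 (1.58 and 1.36), Ehhadh (1.51 and 1.36) and Cpt2 (1.28 and 0.90). The lowest log2 values in these replicates were 3.29 for Fabp1 and 2.55 for Creb3l3, which rest on few reads, so the size of their rises is uncertain. Lpl, lipoprotein lipase, which Angptl4 inhibits, fell by 0.68 in control and by 1.33 in NASH. The median change of the 52 was 0.64 in replicates 2 and 3 and 0.09 in replicate 1, beside 2.65 and 0.26 for the 8 genes and -0.07 and 0.03 for all genes.

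**Figure D4:**
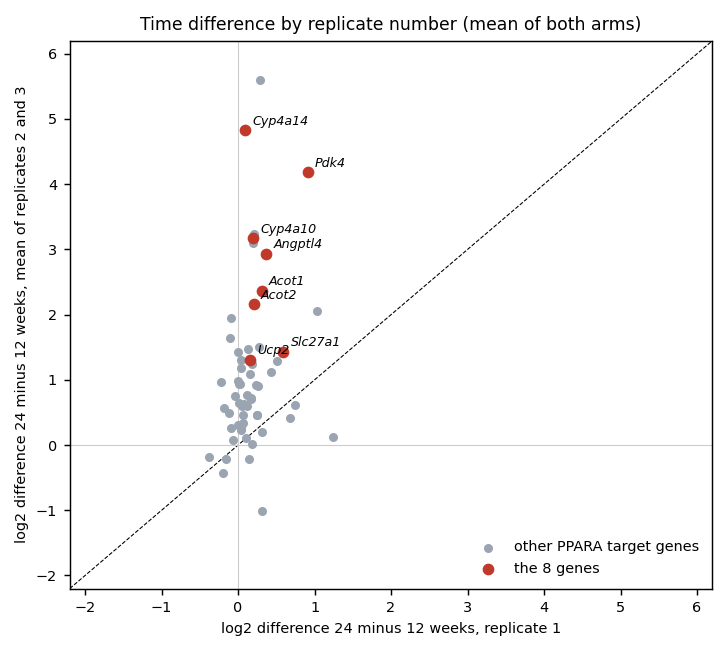
Log2 difference between 24 and 12 weeks, mean of both arms, in replicate 1 (horizontal axis) and as the mean of replicates 2 and 3 (vertical axis); red points are the 8 genes, grey points the 52 other measured PPARA targets, and the dashed line marks equal differences. All 8 genes lie above the line, as do 43 of the 52.

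Among 16 receptors and partners, within replicates 2 and 3 Ppara rose in control (0.71, limma adjusted p = 0.0206) and was at 0.49 in NASH (adjusted p = 0.0946), while Ppard fell by 2.04 in control (adjusted p = 0.000358) and was at 0.50 in NASH (adjusted p = 0.19). In NASH against control at 12 weeks 0 of the 16 were called with all libraries (0.0517% of all genes). With replicates 2 and 3 alone 1 was called, on the lower side, where 2.5% of all genes were. With the block 6 of the 16 fell, where 9.85% of all genes did, among them Ppard (-2.0, adjusted p = 0.0137) and the coregulators Ncoa2 (-0.82) and Ncor1 (-0.63), and 0 rose.

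Relatives of the 8 genes moved less uniformly. Of 33 measured paralogs, 3 rose and 2 fell in control and 6 rose and 3 fell in NASH within replicates 2 and 3. Of all genes 2.33% rose and 4.17% fell in control, and 2.51% and 2.14% in NASH. Cyp4a31, which shares 15.3% of the windows of Cyp4a10, rose in both (1.69 and 1.95), as did the thioesterase Acot12 (1.07 and 0.61). Pdk3, another pyruvate dehydrogenase kinase, fell by 0.86 in NASH, and Pdk1 and Pdk2 were not called in either arm. Of 9 genes of the pyruvate dehydrogenase complex and its regulators, 0 rose and 1 fell in each arm: Pdp2, a phosphatase that undoes the action of Pdk4 on the complex, fell by 1.07 in control, and Mpc1, of the pyruvate carrier, by 0.63 in NASH.

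Genes raised by glucocorticoids or FOXO factors went with the 8 in part. Of 21, 4 rose and 1 fell in control and 8 rose and 0 fell in NASH within replicates 2 and 3. Of all genes 2.33% rose and 4.17% fell in control, and 2.51% and 2.14% in NASH, also the background for the clock genes below. Txnip, which is also on the list of PPARA targets, rose in both arms (1.70 and 1.57), and Pck1, the entry enzyme of gluconeogenesis, in control (3.12). Cdkn1a (2.42), Zbtb16 (3.19) and Irs2 (1.86) rose in NASH. Averaged over both arms in these replicates, 17 of the 21 changes were positive. The 4 negative ones were Nr3c1 (-0.73), Ddit4 (-0.29), Tsc22d3 (-0.09) and Foxo1 (-0.07). Of 16 measured clock genes, 4 rose and 3 fell in control and 3 rose and 1 fell in NASH within replicates 2 and 3. Dbp, whose level follows the hour of the day, ranged from 3.54 to 10.25 over the libraries, rose in control (3.57) and fell by 2.47 in NASH, and Npas2 fell by 1.34 in control and rose in NASH (1.71), while Per1 rose in both (0.94 and 0.74). The parts of glucocorticoids, FOXO factors and the hour of dissection in the result were not tested.

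Markers of other cells were set beside these changes, since in bulk tissue fewer cells of a type and less RNA per cell cannot be told apart. Of 11 adipocyte markers, 4 rose and 1 fell in control within replicates 2 and 3, with Adipoq, a hormone of fat cells, at 2.34 and 2.40 at 12 weeks and 7.88 and 7.71 at 24 weeks. In NASH 0 rose and 1 fell. Changes of 9 of the 11 were positive in control, with a median of 2.18, and of 6 in NASH, with a median of 0.07. Control replicate 1 at 24 weeks had the highest Adipoq (10.50) and Ucp1 (11.88) of all 12 libraries and was the lowest of its group for 8 of 8 genes. The summed adipocyte level lay at log2 13.06 to 14.37 in control at 12 weeks and 13.78 to 15.38 in control at 24 weeks. In NASH it lay at 13.33 to 14.66 at 12 weeks and 12.59 to 13.48 at 24 weeks. Lpl, which is on this list and also among the PPARA targets, made up most of the sum in replicates 2 and 3. It was at 13.16 to 14.58 there. In control replicates 2 and 3 the sum was 14.37 and 14.19 at 12 weeks and 13.83 and 13.78 at 24 weeks, opposite to Adipoq. Within replicates 2 and 3, 0 hepatocyte, macrophage or muscle markers were called higher in either arm. Of 9 hepatocyte markers 1, Ttr, fell in both (by 1.06 in control and by 2.73 in NASH). Of all genes 2.33% rose and 4.17% fell in control, and 2.51% and 2.14% in NASH. At such shares 0 calls on lists this short say little. None of the 10 macrophage markers were called, but 9 of 10 changes were positive in NASH, with a median of 0.99 against 0.01 over all genes, and 5 of 10 in control, with a median of -0.05. Summed macrophage markers lay between 10.44 and 12.28 and hepatocyte markers between 13.14 and 15.85, the latter at 13.14 to 13.45 in replicate 1 of the 4 groups. Cyp2e1, which is on the hepatocyte list, made up most of that sum in replicates 2 and 3. It was at 14.72 to 15.63 there and at 10.75 to 11.4 in replicate 1. Alb, on the same list, was higher in every replicate 1 than in replicates 2 and 3. Apob was at 11.93 to 12.77 in replicate 1 and at 10.62 to 11.94 in the others, and Ttr at 7.22 to 10.67 and 8.81 to 12.6. The low sum in replicate 1 thus does not stand for the whole list. The part of adipocytes, macrophages and hepatocytes in the result was not tested.

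Across the 12 libraries the 8 genes varied together. Their 28 pairwise correlations ran from 0.48 to 0.95, with a median of 0.84. These describe shared libraries, among them the split between replicate numbers, and carry no test. Among the 3 genes most like each of the 8 were Pnldc1 (r = 0.965) and Slc25a20 (0.958) for Cyp4a10, Cited2 for Ucp2 (0.913), Eci1 for Acot2 (0.974), Hsdl2 for Pdk4 (0.96), Crat for Angptl4 (0.95) and Aldh1a1 for Cyp4a14 (0.92). Some of the 8 were each other's nearest: Cyp4a10 was first for Acot1 (0.95), Pdk4 first for Slc27a1 and Slc27a1 second for Pdk4 (0.95).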

How the data were processed

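RNA of kidney cortex was measured in 12 libraries, 3 in each of 4 groups. The deposited values are normalized log2 values for 11614 genes, per the file headers. The authors used BWA, limma and mm10, per the submitters' processing notes; versions and roles are not given in the sources used here. Each library's values were whole multiples of 1 step for 85.37% to 91.47% of values under 60 steps (tolerance 0.01), which gave the estimated reads; the rule for choosing the step was relaxed after 1 library came out at a wrong step.

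The log2 values were fitted with limma 3.58.1 in R 4.3.3 as 4 group means over 12 libraries with a mean-variance trend. The 2-sided p-values were adjusted by Benjamini-Hochberg over 11614 genes, and a gene is called, that is "rose" or "fell", at an adjusted p under 0.05. Only the fit without a block on all 12 libraries was tested on simulated data. Those data had independent noise and lacked the split between replicate numbers. SE is the standard error of a log2 change.

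The 8 genes and 12 gene lists were chosen with earlier results of these data known. By rule all 8 genes are named, with up to 6 genes per list by smallest p in the NASH comparisons and, for each of the 8, the 3 genes with the highest Pearson r. Genes named for the time comparisons were chosen after their values were seen.

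Same-numbered libraries of different groups deviated together (r of deviations from group means 0.187 to 0.742), so the number was fitted as a block. Replicates 2 with 3 also correlated (0.187 to 0.637), and the meaning of a replicate number is not in the labels. Alternatives were the block, quantile normalization, median-of-ratios scaling, an added pseudocount of 16, a filter at log2 5, replicates 2 and 3 alone and leaving out each library. Shared windows come from transcripts of mm10's GENCODE annotation. Values of some single genes on the lists are not reported here.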

Additional observations from a re-analysis of the deposited data

Results flagged for a closer look

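The change from 12 to 24 weeks differed between replicate 1 and replicates 2 and 3 for 2 of the 8 genes, by a test of the difference itself that was added after the data were seen. For Acot2 the difference was -1.951 on the log2 scale (limma adjusted p = 0.00114), and for Pdk4 it was -3.277 (adjusted p = 0.0176). Replicate 1 moved less than the others in both arms for both genes. The libraries numbered 1 are also those with high Xist and low Ddx3y, which read as female. What a replicate number stands for is not given in the sources used here, and sex cannot be told apart from it.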

How the results depend on the processing

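Calls over time depended on replicate 1. With only replicates 2 and 3 the counts of called genes rose from 0 to 8 in control, 7 in NASH and 8 for the average of both arms. Of all genes 2.33%, 2.51% and 4.51% were called higher there. The counts were 8, 7 and 8 with the replicate block added. With all libraries the replicate block gave 2 for the average (0.112% of all genes called higher), which became 1 under median-of-ratios scaling. Under quantile normalization the block gave 1 in control. The share of all genes is not given here for the block within replicates 2 and 3 or under other scalings. Leaving out 1 library gave 0 to 3 calls for the average without the block, where 0.0% to 0.0431% of all genes were called higher. With the replicate block it gave 0 to 3 in control, 0 to 4 in NASH and 0 to 7 for the average, where 0.0% to 1.2%, 0.0% to 0.939% and 0.0% to 2.63% of all genes were called higher, so all genes gained calls too. It gave 1 to 4 for the difference between replicate numbers, for which the share of all genes is not given here. The larger counts came without a library numbered 1, except the 4 of the last, which came without control replicate 2 at 12 weeks. The replicate block changed no other call of the 8 genes. Of 1096 alternative values of the time changes of single genes, 0 had the opposite sign. Each alternative kept libraries of replicates 2 and 3 in every group compared, where all 8 genes were higher at 24 weeks. Replicate 1 alone was not an alternative, so this count does not cover it. In replicate 1, 6 of 8 differences were positive in control and 5 of 8 in NASH.

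Of 320 alternative values of the NASH changes 0 were called and 33 had the opposite sign. The sign was the same in every alternative for Ucp2 (0.303 to 0.716) and Acot1 (-1.114 to -0.253) at 12 weeks and Cyp4a14 (0.26 to 0.759) at 24 weeks, and changed in at least 1 for the other 13 changes. With only replicates 2 and 3 the change at 12 weeks was -0.042 for Pdk4 and -0.043 for Slc27a1, and at 24 weeks -0.116 for Cyp4a10, 0.136 for Angptl4 and 0.081 for Slc27a1. Median-of-ratios scaling gave 0.020 for Cyp4a14 at 12 weeks. Leaving out 1 library moved the 12-week change from -0.313 to 0.449 for Pdk4, -0.105 to 0.115 for Acot2, -0.770 to 0.204 for Cyp4a10, -1.917 to 1.370 for Cyp4a14, -0.196 to 0.345 for Angptl4 and -0.029 to 0.415 for Slc27a1. At 24 weeks it moved from -1.506 to 0.244 for Pdk4, -0.600 to 0.019 for Ucp2, -0.218 to 0.943 for Acot1, -0.164 to 0.945 for Acot2, -0.666 to 0.668 for Cyp4a10, -1.601 to 0.627 for Angptl4 and -0.230 to 0.163 for Slc27a1. Causes were not tested. With 3 libraries a group many intervals were wide, and changes within a printed interval are not excluded.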
